A study of Homo sapiens with 4 samples.

Results

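The phospholipase A2 genes described here are 9 genes of the human ovarian cancer line SKOV3: PLA2G3, PLA2G12A, PLA2G2A, PLA2G10, PLA2G4A, PLA2G4C, PLA2G6, PLA2G15 and PLA2G16. They are 9 of the 40205 genes in the deposited count table and were taken by gene symbol. PLA2G3 was picked because its counts were higher with 20(S)-Rg3 in this same comparison, and the others were added as secreted, cytosolic and lysosomal forms to set beside it. The differences of the members between the groups are therefore given as a description, without p-values of single members. Where calls of members at a threshold are given, nothing is read from them. Of the 9 genes, 7 had enough counts to enter the fit over 16323 genes, and PLA2G2A and PLA2G10 had no count in any library. Each of the 7 had at least 24 counts in every library, so none entered through 1 group alone. In the reference annotation the genes lie on chromosomes 1 (PLA2G2A, PLA2G4A), 4 (PLA2G12A), 11 (PLA2G16), 16 (PLA2G10, PLA2G15), 19 (PLA2G4C) and 22 (PLA2G3, PLA2G6).

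SKOV3 cells were either given 20(S)-Rg3, a saponin of ginseng, at 80 µg/mL for 24 h (2 libraries) or left as controls (2 libraries). All 4 libraries came from the same line grown in serum-containing medium, and whether the controls received a vehicle is not stated in the labels. The RNA behind each library was pooled and depleted of ribosomal RNA before sequencing. The labels name no separate cultures for the libraries of 1 group, so the spread between them may be technical.

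Phospholipases A2 cut an acyl chain from membrane phospholipids and so release a free fatty acid and a lysophospholipid. Where the freed chain is arachidonic acid, cyclooxygenases and lipoxygenases can turn it into prostaglandins and leukotrienes. The secreted enzymes are mostly small proteins that act outside the cell or in the secretory pathway and need calcium. The cytosolic, calcium-independent, lysosomal and adipose forms have other folds and act on membranes within the cell.

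The libraries held 30132517 and 24571619 counts with Rg3, and 24482846 and 26731913 counts in controls. The Rg3 libraries lay further apart than the controls: the median absolute log2 difference per gene was 0.29 between the Rg3 libraries and 0.14 between the controls. Levels below are CPM, counts divided by the TMM-scaled size of each library, and differences are log2 fold changes of Rg3 over control from edgeR. Of 8 markers fixed for the line, 4 averaged at least 1 CPM, namely KRT8, KRT18, ERBB2 and MUC16. The epithelial marker EPCAM had 0 counts in every library, KRT19 had 2 counts in all, and the lineage factors PAX8 and WT1 stayed below 1 CPM. Summed over the 8 markers, levels ran from 3365 to 4586 CPM with Rg3 and from 4376 to 5334 CPM in controls. Of 9 markers of leukocytes, endothelium and fibroblasts, 3 averaged at least 1 CPM (CD68, CDH5 and COL1A1), while the leukocyte gene CD3E had 0 counts and PTPRC had 3 counts in all. The summed level of the 3 leukocyte markers ran from 10.5 to 17.3 CPM with Rg3 and from 16.8 to 21.3 CPM in controls. That of the 3 endothelial markers ran from 16.5 to 17.0 CPM with Rg3 and from 18.8 to 19.8 CPM in controls. The 3 fibroblast markers summed to between 1.70 and 4.84 CPM with Rg3 and between 2.31 and 3.10 CPM in controls. Most of these sums came from KRT8 and KRT18 for the line, CD68 for leukocytes, CDH5 for endothelium and COL1A1 for fibroblasts. The part of these markers in the results below was not tested.

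PLA2G3 encodes the group III secreted enzyme, the human relative of the phospholipase of bee venom. It was counted 154 and 77 times in the Rg3 libraries, against 27 and 24 times in the control libraries. In CPM it stood at 5.00 and 3.20 with Rg3 and at 1.10 and 0.908 in controls, and both Rg3 libraries lay above both controls. The group means were 4.10 ± 1.28 CPM with Rg3 and 1.0 ± 0.133 CPM in controls (SD, n = 2 each). The log2 fold change was 2.04 (SE 0.33), or 4.10-fold. In bulk RNA, more cells that express the gene and more of its RNA per cell cannot be told apart.

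The gene was near the low end of what these libraries measure, so counting error takes a visible share of its spread. The exact Poisson 95% interval, which covers counting error only, ran from 4.24 to 5.86 CPM in Rg3 replicate 1 and from 2.52 to 4.0 CPM in Rg3 replicate 2. It ran from 0.722 to 1.6 CPM in control 1 and from 0.582 to 1.35 CPM in control 2. The intervals of the controls overlapped each other, those of the Rg3 libraries did not, and neither Rg3 interval reached a control interval. PLA2G3 was chosen for being higher with Rg3, so the gap between the groups is no further support. Rg3 replicate 1 lay above Rg3 replicate 2 by 0.65 on the log2 scale, and control 1 lay above control 2 by 0.27.

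When each Rg3 library was set against each control, 4 ratios in all, PLA2G3 was between 2.92-fold and 5.51-fold higher with Rg3. Among all 16323 genes tested it had the 12th highest log2 fold change, and among the 14116 of these that averaged at least 1 CPM it had the 6th highest. A ratio of counts within a library is free of the library scaling. For every 100 counts of PLA2G12A, the other secreted form detected, there were 27.6 and 17.3 counts of PLA2G3 with Rg3 and 5.39 and 4.92 in controls. For every 100 counts of PLA2G4A there were 37.0 and 17.2 counts of PLA2G3 with Rg3 and 6.40 and 5.30 in controls. The ranks and ratios use the same PLA2G3 counts that led to its choice and are no further support. No other gene of the reference annotation overlaps PLA2G3.

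**Figure D1:**
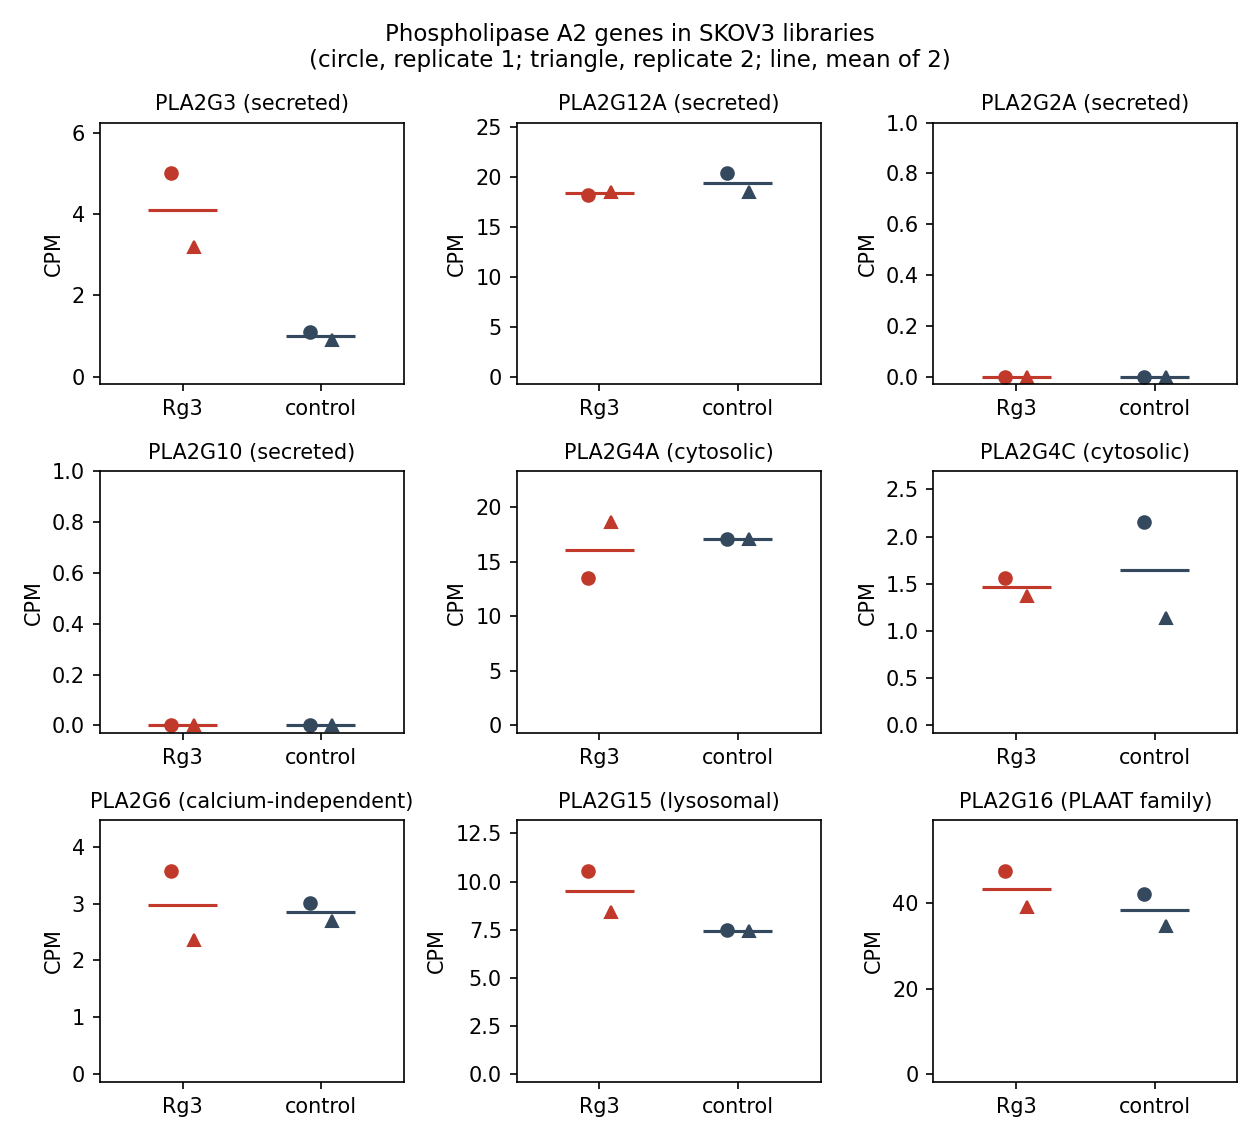
Level of the 9 phospholipase A2 genes in CPM (y axis, starting at about 0 and scaled for each gene) in Rg3 and control libraries, with a circle for replicate 1, a triangle for replicate 2 and a line at the mean of 2. PLA2G3 lies at 5.00 and 3.20 CPM with Rg3 and 1.10 and 0.908 CPM in controls. The Rg3 libraries of PLA2G15 also lie above both controls, which held for 15.3% of all tested genes. The groups of the other 5 tested genes overlap, and PLA2G2A and PLA2G10 lie at 0.

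PLA2G12A encodes an atypical secreted enzyme that many tissues express. It stood at 18.1 and 18.5 CPM with Rg3 and at 20.3 and 18.5 CPM in controls, with a log2 fold change of −0.08 (SE 0.15). The Rg3 libraries lay within 0.03 of each other on the log2 scale, and the groups overlapped. It has processed copies: the pseudogene PLA2G12AP1 was counted 56 and 52 times with Rg3 and 49 and 37 times in controls, and PLA2G12AP2 once in all. Reads of the gene and its copies may have been shared, but the counts of PLA2G12A itself were 559 and 446 with Rg3 and 501 and 488 in controls.

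PLA2G2A, the secreted enzyme of inflammation that kills bacteria, and PLA2G10, a secreted enzyme with high activity on phosphatidylcholine, had 0 counts in all 4 libraries. A count of 0 among 105918895 counts allows a level of up to 0.0283 CPM over the 4 libraries. For PLA2G10 the reference annotation lists 8 pseudogenes, of which 0 have a row in the count table. How reads that match several copies were counted is not given in the sources used here, so the 0 of PLA2G10 is less certain than that of PLA2G2A. A further 7 secreted genes, PLA2G1B, PLA2G2C, PLA2G2D, PLA2G2E, PLA2G2F, PLA2G5 and PLA2G12B, had too few counts to be tested, and 4 of them had none. PLA2G3 and PLA2G12A were therefore the secreted forms measured here.

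PLA2G4A encodes the cytosolic phospholipase A2 alpha, which moves to membranes when calcium rises and prefers chains of arachidonic acid. It stood at 13.5 and 18.6 CPM with Rg3 and at 17.1 and 17.1 CPM in controls. The controls nearly coincided, and the Rg3 libraries lay on either side of them. The log2 fold change was −0.10 (SE 0.19), and without Rg3 replicate 1 it was 0.12.

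PLA2G4C encodes cytosolic phospholipase A2 gamma, a membrane-bound form that does not need calcium. It was low, at 1.56 and 1.37 CPM with Rg3 and at 2.15 and 1.14 CPM in controls. Here the controls were further apart than the Rg3 libraries, by 0.92 against 0.19 on the log2 scale, and enclosed them. The log2 fold change was −0.16 (SE 0.38), and 0.38 without control 1. An antisense gene, PLA2G4C-AS1, overlaps it in the reference annotation. The strand setting of the counts is not given in the sources used here, so reads of that gene could be included.

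PLA2G6 encodes the calcium-independent enzyme that takes part in membrane remodelling. It stood at 3.57 and 2.37 CPM with Rg3 and at 3.0 and 2.69 CPM in controls, so that the Rg3 libraries enclosed the controls. The log2 fold change was 0.07 (SE 0.29), −0.26 without Rg3 replicate 1 and −0.01 without control 2.

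PLA2G15 encodes the lysosomal phospholipase A2, which works in acid and is also a transacylase. It stood at 10.6 and 8.43 CPM with Rg3 and at 7.51 and 7.42 CPM in controls. Besides PLA2G3 it was the only member whose Rg3 libraries both lay above both controls, which held for 15.3% of all tested genes. The log2 fold change was 0.35 (SE 0.20), with 0.18 when Rg3 replicate 1 was left out and 0.50 when Rg3 replicate 2 was. The smallest ratio of a single Rg3 library to a single control was 1.12 and the largest 1.42.

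PLA2G16, now named PLAAT3, encodes the phospholipase of fat tissue, which is unrelated in sequence to the secreted and cytosolic enzymes. It stood at 47.5 and 39.1 CPM with Rg3 and at 42.1 and 34.7 CPM in controls, with replicate 1 above replicate 2 in both groups. The groups overlapped, and the log2 fold change was 0.18 (SE 0.17), with 0.03 without Rg3 replicate 1. In the reference annotation 2 long non-coding RNA genes overlap it.

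**Figure D2:**
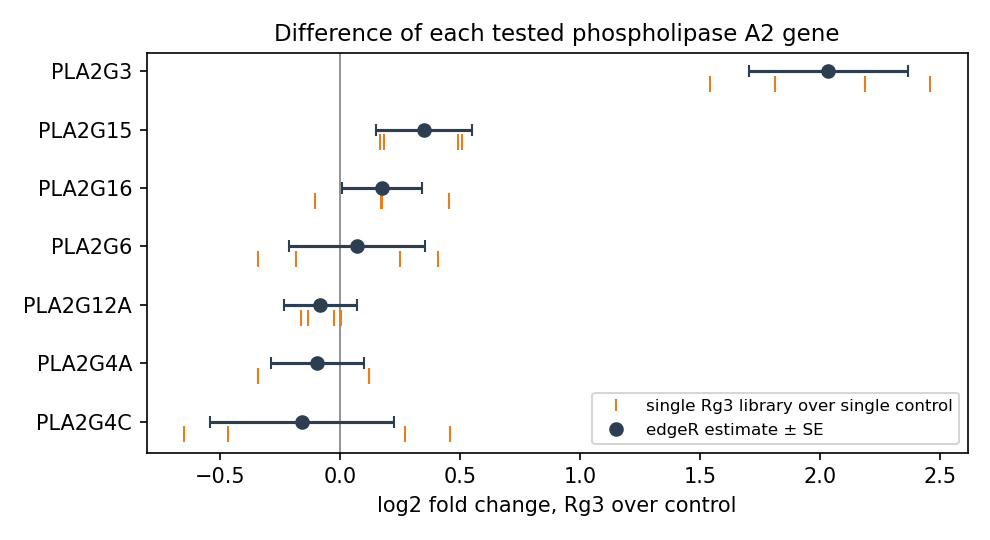
Log2 fold change of Rg3 over control (x axis) for the 7 tested phospholipase A2 genes, with the edgeR estimate and its SE as point and bar and the 4 ratios of single libraries as ticks below. PLA2G3 has an estimate of 2.04 and single-library ratios of 2.92-fold to 5.51-fold, the 4 ratios of PLA2G15 lie between 1.12-fold and 1.42-fold, and those of the other 5 genes lie on both sides of 0.

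Across the members, 4 of the 7 tested genes had a log2 fold change above 0 and 3 below. The median was 0.07, against 0.01 over all tested genes, of which 52.5% were above 0. Both Rg3 libraries lay above both controls for 2 of 7 members, against 15.3% of all tested genes, and for 0 members did both lie below, against 17% of all tested genes. By edgeR's quasi-likelihood test 0 of 7 members passed an adjusted p of 0.05 over all genes, against 0.0306% of all tested genes. At an unadjusted p under 0.05 there was 1, PLA2G3, against 4.73% of all tested genes, DESeq2 called 1, against 0.331% of all tested genes, and limma voom 0. Since PLA2G3 was chosen from this comparison, nothing is read from these counts. Without PLA2G3 the other 6 members had a median of −0.01, with 3 above and 3 below 0.

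The members also varied between replicates. Rg3 replicate 1 lay above Rg3 replicate 2 for 5 of the 7 tested members, against 48.9% of all tested genes, and the exceptions were PLA2G12A and PLA2G4A. Control 1 lay above control 2 for 6 of the 7, all but PLA2G4A, against 50.3% of all tested genes. Levels are not ranked between the genes, because no transcript lengths were at hand to put them on one scale.

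Genes with a pattern like that of PLA2G3 were sought among 14109 other tested genes that averaged at least 1 CPM. Likeness was the distance between log2 CPM profiles over the 4 libraries, each centred on its own mean. Of the 5 nearest genes 4 are given. The nearest was LOC101060037, at a distance of 0.12, which had 13.0 and 8.97 CPM with Rg3 and 3.29 and 2.72 CPM in controls. The reference tables used here do not annotate it. Another was HMGCS1, the HMG-CoA synthase of sterol synthesis, at a distance of 0.30 and with 325 and 259 CPM with Rg3 and 70.8 and 61.6 CPM in controls.

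SQLE, the squalene epoxidase of sterol synthesis, was at a distance of 0.45, with 156 and 146 CPM with Rg3 and 46.8 and 44.6 CPM in controls. RPS26P50, a ribosomal protein pseudogene that can share reads with its parent gene, was at 0.46, with 9.25 and 5.69 CPM with Rg3 and 2.64 and 2.46 CPM in controls. For these 4 genes both Rg3 libraries lay above both controls, as the choice of a similar profile makes likely. All these genes were read from the same 4 libraries, and a small distance describes those libraries only.

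Each of the other phospholipase A2 members lay further from PLA2G3 than the genes named above, which were picked for being nearest. The distance mostly reflects the difference for which PLA2G3 was chosen. PLA2G15 had a distance of 1.61 and ranked 429th by nearness against 14109 genes, and PLA2G16, at 1.77, ranked 1353rd. The distance of PLA2G6 was 1.89, and those of PLA2G12A, PLA2G4C and PLA2G4A were 2.06, 2.09 and 2.19.

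**Figure D3:**
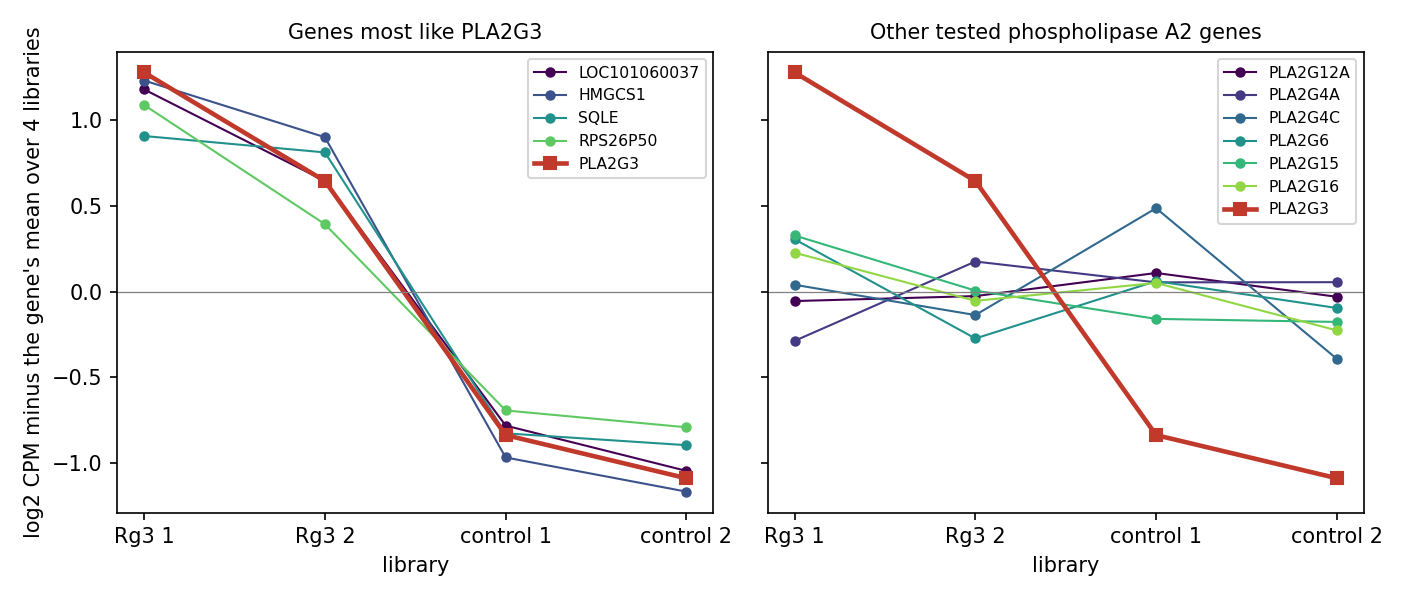
Log2 CPM minus each gene's mean over the 4 libraries (y axis) by library (x axis), with PLA2G3 as red squares in both panels, 4 of the 5 genes nearest to it at left and the other 6 tested phospholipase A2 genes at right. Lines join the values of 1 gene. At left the profiles run close together at distances of 0.12 to 0.46. At right the other members lie between −0.39 and 0.49, at distances of 1.61 to 2.19.

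A list of 37 other phospholipases A2, related enzymes and regulators held 17 tested genes, 10 with too few counts and 10 with none. By edgeR 0 were called higher and 0 lower over all genes, DESeq2 called 0 and limma voom 0. Of all tested genes edgeR called 0.0306% higher and 0% lower, DESeq2 called 0.331% and limma voom 5 genes. With p left unadjusted (under 0.05) 1 gene was higher and 0 lower, against 1.83% and 2.9% of all tested genes. Of the 17, 8 were above 0 and 9 below, against 52.5% of all tested genes above 0. The median was −0.05, and ran from −0.04 to 0.07 when 1 library was left out. Both Rg3 libraries lay above both controls for 4 of the 17 and below them for 0, against the 15.3% and 17% of all tested genes given above.

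Among the patatin-like genes PNPLA3, which encodes a lipase of lipid droplets, stood at 21.1 and 13.5 CPM with Rg3 and at 11.8 and 10.6 CPM in controls. Its log2 fold change was 0.63 (SE 0.23, edgeR adjusted p = 0.999), with 0.27 when Rg3 replicate 1 was left out and 0.92 when Rg3 replicate 2 was. PNPLA6, which deacylates lysophospholipids, had a log2 fold change of 0.33 and PNPLA8, a calcium-independent phospholipase A2 of mitochondria, one of 0.21. PNPLA6 was at −0.21 without Rg3 replicate 1. PLA2G4B, a further cytosolic form, was at −0.07, and the read-through gene JMJD7-PLA2G4B, which could share its reads and has its own row of counts, was at 0.03.

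The subunits PAFAH1B1 and PAFAH1B2 and the enzyme PAFAH2, which inactivate platelet-activating factor or belong to the complex that does, had log2 fold changes of 0.09, −0.05 and 0.01. PRDX6, a peroxiredoxin with phospholipase A2 activity, was at −0.05, the phospholipase ABHD3 at 0.17 and PLBD2 at −0.16. RARRES3 and HRASLS2, relatives of PLA2G16, were low and had −0.39 and −0.85, each with overlapping groups. PLAA, the phospholipase A2 activating protein, and ANXA1, an annexin known as an inhibitor of phospholipase A2, were at 0.11 and −0.09. The receptor PLA2R1, which binds secreted phospholipases A2, had 5 and 3 counts with Rg3 and 3 and 5 counts in controls and was not tested.

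The eicosanoid list of 49 genes, which covers what follows once arachidonic acid is free, held 25 tested genes, 12 with too few counts and 12 with none. By edgeR 0 were called higher and 0 lower over all genes, DESeq2 called 0 and limma voom 0. Of all tested genes edgeR called 0.0306% higher and 0% lower, DESeq2 called 0.331% and limma voom 5 genes. With p left unadjusted 0 genes were higher and 2 lower, against 1.83% and 2.9% of all tested genes. Of the 25, 9 were above 0 and 16 below, against 52.5% of all tested genes above 0. The median was −0.08, and −0.17 to −0.03 when 1 library was left out. Both Rg3 libraries lay above both controls for 3 of the 25 and below them for 6, against 15.3% and 17% of all tested genes.

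Of the cyclooxygenases, PTGS2, the inducible one, had 3 and 6 counts with Rg3 and 1 and 4 counts in controls and was not tested. PTGS1, the constitutive one, was counted 83 and 59 times with Rg3 and 106 and 121 times in controls. That is 2.69 and 2.45 CPM with Rg3 and 4.30 and 4.58 CPM in controls, and the groups did not overlap. Its log2 fold change was −0.78 (SE 0.23, edgeR adjusted p = 0.905), and it stayed between −0.86 and −0.72 when any 1 library was left out. ALOX15, a lipoxygenase, had 8 and 9 counts with Rg3 and 19 and 24 counts in controls, a log2 fold change of −1.42 (SE 0.45, edgeR adjusted p = 0.921). PTGS1 and ALOX15 were the 2 genes of this list under an unadjusted p of 0.05, neither passed over all genes, and both were named after their values were seen.

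Of the 11 genes of prostanoid synthesis 7 were tested. PTGES, which makes prostaglandin E, stood at 166 and 167 CPM with Rg3 and at 155 and 141 CPM in controls, with a log2 fold change of 0.17 (SE 0.13). PTGES2 was at −0.08 and AKR1C3, which makes prostaglandin F from prostaglandin D, at −0.32. On the leukotriene side LTA4H, MGST3 and MGST2 had log2 fold changes of 0.12, −0.02 and −0.23, and each changed sign when 1 library was left out. CYP2U1, EPHX2 and CYP4F11, of the cytochrome P450 branch, were at 0.03, −0.65 and −0.21. With 1 library left out CYP2U1 ran from −0.32 to 0.32, EPHX2 from −1.06 to −0.31 and CYP4F11 from −0.80 to 0.18. Of the breakdown and transport genes PTGR1, CBR1 and the exporter ABCC4 were at −0.05, −0.02 and 0.12. Of 14 receptors 8 had no count and 4 were tested, all 4 above 0. Among them LTB4R had 0.04, TBXA2R 0.09, PTGER4, a receptor of prostaglandin E, 0.29 and LTB4R2 0.51. The groups of LTB4R2 overlapped, and with 1 library left out its estimate ran from 0.17 to 0.77. The estimates of LTB4R and TBXA2R were −0.60 and −0.58 without Rg3 replicate 1.

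The third list, 35 genes that reacylate or break down lysophospholipids, activate the freed fatty acid or sense lysophospholipids, held 24 tested genes, 6 with too few counts and 5 with none. By edgeR 0 were called higher and 0 lower over all genes, DESeq2 called 0 and limma voom 0. Of all tested genes edgeR called 0.0306% higher and 0% lower, DESeq2 called 0.331% and limma voom 5 genes. With p left unadjusted 2 genes were higher and 2 lower, against 1.83% and 2.9% of all tested genes. Of the 24, 13 were above 0 and 11 below, against 52.5% of all tested genes above 0. The median was 0.01, and −0.06 to 0.17 when 1 library was left out. Both Rg3 libraries lay above both controls for 5 of the 24 and below them for 5, against 15.3% and 17% of all tested genes.

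The long-chain acyl-CoA synthetases couple free fatty acids to coenzyme A. ACSL5 stood at 45.1 and 51.0 CPM with Rg3 and at 77.3 and 71.8 CPM in controls, with a log2 fold change of −0.63 (SE 0.14, edgeR adjusted p = 0.566). It lay between −0.73 and −0.55 when any 1 library was left out. ACSL4, which prefers arachidonic acid, stood at 35.1 and 38.8 CPM with Rg3 and at 25.7 and 29.4 CPM in controls, with a log2 fold change of 0.42 (SE 0.15, edgeR adjusted p = 0.999). ACSL3 was at 0.25 and ACSL1 at 0.36, and ACSL6 had no count.

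Of the acyltransferases LPCAT1, which rebuilds phosphatidylcholine, stood at 56.7 and 47.7 CPM with Rg3 and at 71.8 and 69.2 CPM in controls (log2 fold change −0.43, SE 0.14, edgeR adjusted p = 0.956). LPCAT3, which inserts polyunsaturated chains such as arachidonic acid, was at −0.04 and LPGAT1 at 0.13. GDE1, LYPLA1 and LYPLA2, which break down lysophospholipids or related phosphodiesters, were at 0.25, 0.13 and −0.11. Of 9 receptors only LPAR2, which binds lysophosphatidic acid, was tested, at −0.03.

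**Figure D4:**
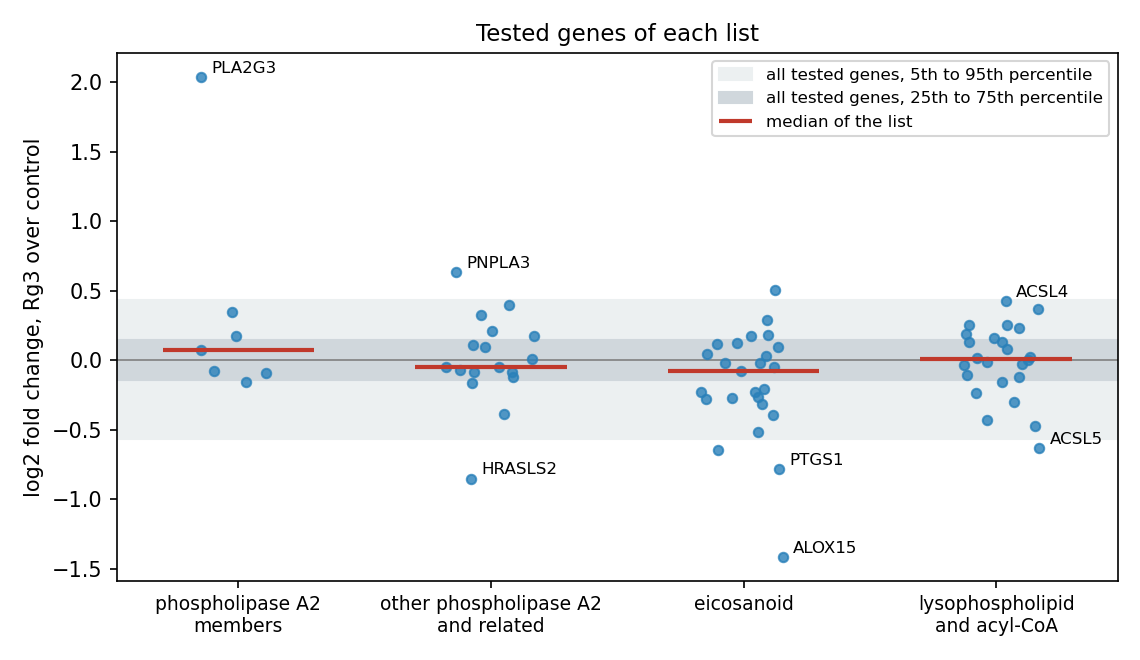
Log2 fold change of Rg3 over control (y axis) for every tested gene of the 9 members and the 3 lists (x axis), with the list medians as red lines and the spread of all tested genes as grey bands. PLA2G3 lies at 2.04, while the medians lie at 0.07, −0.05, −0.08 and 0.01, and the lowest genes are ALOX15 at −1.42, HRASLS2 at −0.85 and PTGS1 at −0.78.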

How the data were processed

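RNA of 4 SKOV3 libraries was analysed from 1 table that the authors deposited as raw read counts per gene symbol, whole numbers with no normalisation. The build was GRCh37, per the submitters' processing notes. Aligner, counter, annotation and strand setting are not given in the sources used here. The labels name 2 sequencing instruments, and which was used is not stated. Groups came from the sample titles.

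The tests were run with edgeR 4.0.16 (R 4.3.3). filterByExpr (minimum count 10, minimum total count 15) kept 16323 genes, libraries were scaled by TMM, and the quasi-likelihood test had treatment as its only term and 2 residual degrees of freedom. P-values were adjusted by Benjamini-Hochberg over all tested genes and called under 0.05. Standard errors came from the F statistic. An exact permutation test of 2 against 2 libraries cannot go below a two-sided p of 0.333 and was not used. Profiles used log2 CPM with a prior count of 2. DESeq2 1.42.0 and limma voom (limma 3.58.1) were alternatives, and the script was tested on simulated data. Names, neighbours and pseudogenes came from NCBI RefSeq (GRCh38), in which all 9 members matched, 1 by an older symbol.

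The members, gene lists and alternatives were chosen with earlier results of these data known. From each list the text names all called genes and up to 3 tested genes of highest level per functional group. The eicosanoid receptors PTGER4 and LTB4R2 had nearly the same mean level, and both are named. PTGS1, ALOX15, ACSL1, LTB4R2 and the untested genes were added after their values were seen. Values of several genes in 1 sentence are log2 fold changes. Of the 5 genes most like PLA2G3, 1 is not reported here, though it stayed in every test and count.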

Additional observations from a re-analysis of the deposited data

How the results depend on the processing

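The log2 fold change of PLA2G3 was between 2.01 and 2.05 under other scalings, without the low-count filter, with DESeq2, with limma voom and with the replicate number as a block. It ran from 1.67 (without Rg3 replicate 1) to 2.32 when each library was left out. The number of genes called over the whole table was less stable: 5 in the fit reported, 214 without the low-count filter, 54 with DESeq2, 155 with the replicate block, and 42 to 652 with 1 library left out. Since PLA2G3 was chosen from these counts, its calls support nothing. Among the members PLA2G3 alone was called with DESeq2, without the filter, under the block and without Rg3 replicate 1, Rg3 replicate 2 or control 1. It was not called under the other alternatives, and 0 of the other members were called under any. Members above 0 numbered 3 to 5 with 1 library left out, and PLA2G4A, PLA2G4C and PLA2G6 changed sign in at least 1 such fit. Of the other phospholipase A2 genes 0 to 2 were called with 1 library left out (PNPLA3 and PNPLA6, without Rg3 replicate 2, where 388 of all genes were called), of the eicosanoid genes 0, and of the lysophospholipid genes 0 to 4 (ACSL5, ACSL4, LPCAT1 and MBOAT7 without Rg3 replicate 1, where 652 of all genes were called, and ACSL5 alone without Rg3 replicate 2). ACSL5 was the 1 gene of the lysophospholipid list called without the filter and the 1 called under the replicate block. The sign of the log2 fold change differed between fits with 1 library left out for 9 of 17 tested genes of the other phospholipase A2 list, 12 of 25 eicosanoid genes and 12 of 24 lysophospholipid genes. The cause of these differences was not tested.

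The replicate numbers are shared between the groups, but nothing in the labels says what they pair, and with 2 per group the deviations of same-numbered libraries correlated at 0.149 across genes. In fits with 1 library left out, a lone library is assumed to vary like the other group, and the gene set was kept. Levels on a per-length scale, and their order, were not run because no transcript lengths were at hand.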
